A study of Sus scrofa with 599 samples.

Results

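The genes described here are those of triglyceride synthesis and glyceroneogenesis: GPAM, GPAT3, AGPAT2, LPIN1, LPIN2, DGAT1, DGAT2, PCK1, GPD1 and GK. They were taken by symbol from the expression table of porcine adipose tissues (ATs), sampled from female Bama miniature pigs, and 9 of the 10 matched 1 row each of the 21280 protein-coding genes (PCGs). GK matched none and was not analysed here. On Sscrofa11.1 (RefSeq) the genes lie at chr14:122538600-122582390 (GPAM), chr8:134912493-135002140 (GPAT3), chr3:124940557-125074137 (LPIN1), chr6:103625725-103728151 (LPIN2), chr4:452890-463665 (DGAT1), chr9:10032163-10066082 (DGAT2), chr17:57930507-57936523 (PCK1) and chr5:16008179-16021676 (GPD1), with AGPAT2 on a scaffold that has no chromosome. The pigs formed 3 nutritional groups. Pigs of the normal condition (NC) ate a normal diet, pigs of the weight-gain (WG) group ate a high-fat diet for 22 weeks, and pigs of the weight-loss (WL) group went through the same high-fat feeding and were then kept for 12 weeks on 10% of the calories of the normal diet. WL pigs were thus also 12 weeks older at sampling than WG pigs, and the diet and this interval cannot be told apart. The pigs were 2 years old, and 12 NC, 46 WG and 10 WL pigs were in the study. Of the pigs, 3 visceral ATs (VATs), greater omentum (GOM), mesenteric (MAD) and retroperitoneal (RAD) fat, and the subcutaneous upper layer of backfat (ULB) were sampled as whole tissue. RNA was measured in 236 labelled libraries, which gave 9 NC, 45 WG and 10 WL libraries in GOM, 12, 36 and 10 in MAD, 12, 39 and 10 in RAD, and 5, 38 and 10 in ULB.

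A fat cell builds triglyceride by adding acyl chains to glycerol 3-phosphate. Glycerol-3-phosphate acyltransferases (GPAM in mitochondria, GPAT3 in the endoplasmic reticulum) add the initial chain, AGPAT2 adds the next and forms phosphatidic acid, lipins (LPIN1, LPIN2) remove its phosphate to give diacylglycerol, and the unrelated enzymes DGAT1 and DGAT2 add the last chain. Adipocytes hold little glycerol kinase (GK), so their glycerol 3-phosphate comes from glycolysis through GPD1, the cytosolic glycerol-3-phosphate dehydrogenase, or, when glucose is short, from pyruvate through PCK1, the cytosolic phosphoenolpyruvate carboxykinase. That latter route is glyceroneogenesis, and it lets fat cells re-esterify fatty acids that lipolysis releases.

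Estimated counts on PCGs were 3337098 to 22939420 per library, with a median of 16791659.5. In 48 libraries PCGs took less than 90% of the summed TPM (a transcript abundance scaled by length and library), from 65.6 to 89.9%, against 90.5 to 96.9% in the other 188. These were 7 of 9 libraries in NC GOM, 2 of 12 in NC MAD, 6 of 12 in NC RAD, 2 of 5 in NC ULB, 4, 2, 3 and 1 in WG GOM, MAD, RAD and ULB, and 8, 7, 3 and 3 of 10 in the same ATs of WL. The adipocyte markers ADIPOQ, PLIN1, LIPE, CIDEC and FABP4 were above 0.5 TPM in at least 80% of the libraries of each of the 12 groups. Markers of other cells stood out in MAD and in some libraries of other ATs. In 3 of 10 WL MAD libraries and 1 of 36 WG MAD libraries the T cell markers CD3E, CD3D and CD2 summed to 195 to 494 TPM, against group medians of 37.45 TPM in WL and 23.3 TPM in WG, and 1 of 12 NC MAD libraries held 5656 TPM of the smooth muscle markers ACTA2 and MYH11. Calls of the 9 genes between nutritional groups in MAD were also made without these 5 libraries, and comparisons between ATs and the further gene lists only with them. The hepatocyte markers ALB, APOA1 and TTR summed to as much as 13141 TPM in NC RAD (median 398) and 7666 TPM in WL GOM (median 285). The kidney tubule markers UMOD, SLC34A1, LRP2 and AQP2 reached 575 TPM in WG MAD (median 1.03) and 115 TPM in WG RAD (median 0.295). No fit left libraries out by hepatocyte or kidney markers. In WG GOM, replicate 35 had the fewest counts and listed GPAT3 at 0 TPM.

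Over the whole dataset the 9 genes spanned a wide range of levels, in TPM, which are per length. DGAT2 had the highest mean of the 9, 232.3 ± 171 TPM (SD, n = 236), and ranked 509 of 21280 PCGs. GPD1 followed with 212.4 ± 118 TPM, LPIN1 with 86.5 ± 53.9, PCK1 with 56.0 ± 78.0 and AGPAT2 with 33.3 ± 16.7. The 4 others were lower, LPIN2 at 16.9 ± 4.89, GPAM at 14.4 ± 3.94, DGAT1 at 10.7 ± 4.60 and GPAT3 at 8.995 ± 4.24 TPM. The SD of PCK1 exceeded its mean, and its group means ran from 13.1 to 141 TPM, a ratio of 10.8, the widest of the 9. The ratio of the highest to the lowest group mean was 6.57 for GPD1, 5.05 for DGAT2, 4.04 for LPIN1, 3.56 for DGAT1 and 1.87 to 2.55 for the other 4. When the 12 group means of a gene were put in order, 9 to 11 of its 11 neighbouring pairs differed by less than the larger of their SDs. Tissue was sampled in bulk, so fewer cells of a type and less RNA per cell cannot be told apart.

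Differences between nutritional groups within each AT were tested to find which steps of the pathway moved with weight gain and with weight loss. A gene was called when edgeR's quasi-likelihood test gave a Benjamini-Hochberg adjusted p below 0.05 over all PCGs tested and a fold change above 1.5. Over the 12 comparisons, 30 of 108 gene-by-comparison tests were called, 14 upwards and 16 downwards. LPIN1 was lower in 8 of 12 comparisons, DGAT2 lower in 6 and higher in 1, GPD1 higher in 4, PCK1 higher in 2 and lower in 2, DGAT1 higher in 3, AGPAT2 higher in 2, and GPAT3 and LPIN2 higher in 1 each. GPAM was called in none of the 12.

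With weight gain (NC to WG), 4 of 9 genes were called in GOM (26.7% of all PCGs tested were called there), 1 in MAD (10.7% of PCGs), 2 in RAD (16.7%) and 0 in ULB (2.38%, with 2 of the 9 genes at an unadjusted p under 0.05). With weight loss (WG to WL), the calls were 1 of 9 in GOM (5.26% of PCGs), 2 in MAD (17.4%), 0 in RAD (6.37%, with 4 of the 9 at an unadjusted p under 0.05 and 1 called by DESeq2) and 5 in ULB (8.12%). LPIN2 in ULB with weight gain and DGAT1 in RAD with weight loss also had adjusted p values below 0.05 (0.033 and 0.038, edgeR), but under 1.5-fold. Between NC and WL, ULB had 5 calls (14.8%), RAD 2 (26.7%), MAD 4 (33.1%) and GOM 4 (36.1%). The share of the 9 genes called lay above that of PCGs by most in ULB with weight loss. The median log2 fold change of the 9 genes ran from -0.36 to 0.57 over the 12 comparisons, and that of all PCGs tested from -0.041 to 0.012. In ULB from WG to WL the values were 0.29 and -0.023. WG to WL and NC to WL share the WL libraries, and NC to WG and WG to WL share those of WG.

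**Figure D1:**
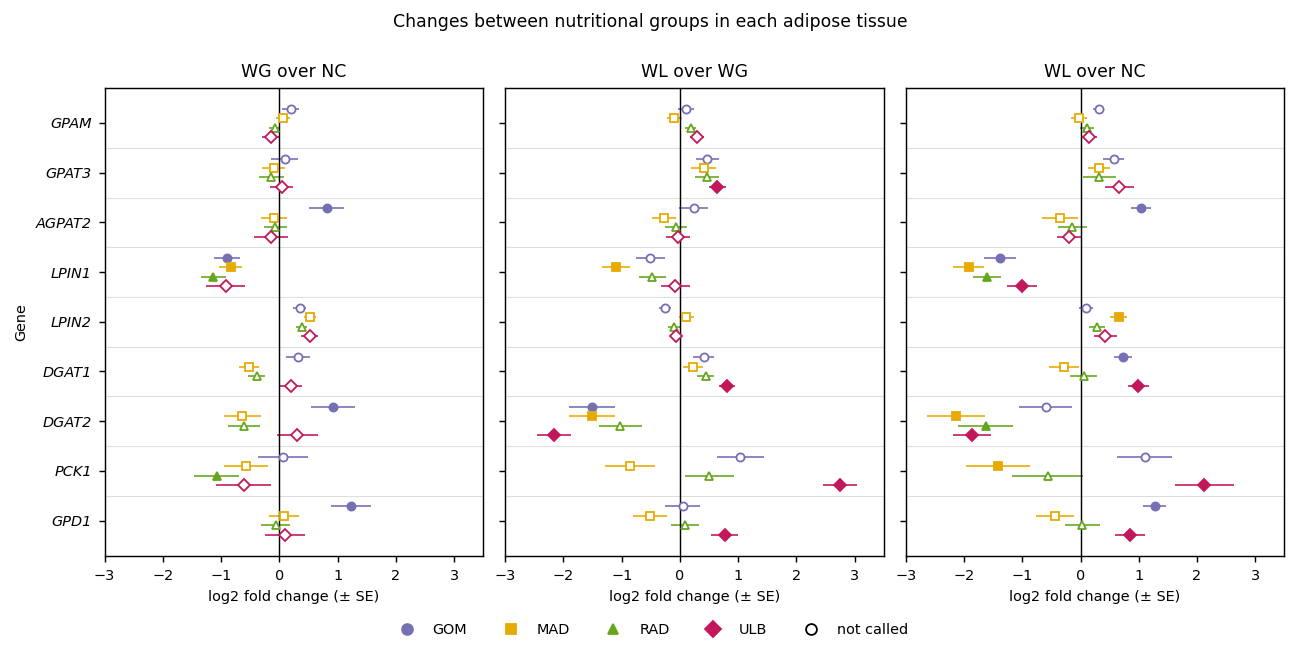
Log2 fold changes from edgeR ± SE (derived from the F statistic) of 9 genes between nutritional groups, with a marker for each adipose tissue. Filled markers passed the adjusted p and fold limits and open ones did not. From WG to WL in ULB, PCK1 stands farthest to the right at 2.74 and DGAT2 farthest to the left at -2.16.

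DGAT2, the diacylglycerol acyltransferase that acts beside new fatty acid synthesis, was lower after weight loss. In ULB its level was 59.8, 259 and 650 TPM in WG (lowest, median and highest of 38 libraries) and 31.3, 69.9 and 102.3 TPM in WL (n = 10). All 10 WL libraries lay below the WG median, and only 4 of the 38 WG libraries lay below the highest WL library. The 5 NC ULB libraries held 90.1, 228, 233, 84.0 and 486 TPM. The fall from WG to WL was 4.47-fold (log2 fold change -2.16, SE 0.28, adjusted p = 2.3e-07). In GOM the level went from 32.8, 215 and 1104 TPM in WG to 18.7, 57.4 and 259 TPM in WL, and in MAD from 35.1, 226 and 800 to 21.2, 66.1 and 266 TPM. In MAD the 3 T cell markers rose in the same comparison, CD3D by 2.63, CD2 by 2.30 and CD3E by 2.15 (log2 fold changes). The falls of DGAT2 were 2.86-fold in GOM (log2 fold change -1.52, SE 0.40, adjusted p = 0.0094) and 2.85-fold in MAD (-1.51, SE 0.40, adjusted p = 0.0036). The groups overlapped in both ATs, with 9 of 10 WL libraries below the WG median in each. In RAD, where WG held 65.6, 189 and 671 TPM and WL 20.5, 64.2 and 393 TPM, the difference of -1.02 (SE 0.37) missed the limit (adjusted p = 0.057). With a term for libraries under 90% of TPM on PCGs, the value in RAD was -1.42 (adjusted p = 0.012). Without the MAD libraries with T cell or smooth muscle markers, the value in MAD was -1.23 (adjusted p = 0.071), and without libraries under 90% it was -0.98 (adjusted p = 0.57, WL n = 3). In GOM the call was lost without the libraries under 90% (-2.86, adjusted p = 0.12, WL n = 2).

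Against NC, DGAT2 was also lower in WL in MAD (log2 fold change -2.14, SE 0.50, adjusted p = 0.0018, or -1.96, adjusted p = 0.0083, without the 5 libraries with other markers, and -1.60, adjusted p = 0.23, without those under 90%), RAD (-1.63, SE 0.48, adjusted p = 0.0090) and ULB (-1.86, SE 0.32, adjusted p = 0.0010). With weight gain it was called in GOM, where NC held 33.6, 109 and 224 TPM (n = 9) and WG had 21 of 45 libraries above the highest NC library (log2 fold change 0.92, SE 0.38, adjusted p = 0.048). This call sat at the limit, and with size factors by RLE the adjusted p was 0.060, or 0.36 without the libraries under 90% (NC n = 2). The change from WG to WL in ULB was not shown to differ from that in GOM, MAD or RAD, with interaction adjusted p values of 0.80, 0.42 and 0.49 by edgeR.

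DGAT1, the other diacylglycerol acyltransferase, rose in ULB, where DGAT2 fell. Its level there was 6.54, 10.3 and 18.01 TPM in WG (n = 38) and 13.3, 20.5 and 24.7 TPM in WL (n = 10). Of the WL libraries, 8 of 10 lay above the highest WG library. The 5 NC libraries, 6.03, 8.42, 12.7, 5.61 and 10.46 TPM, lay below all 10 WL libraries (14.8% of PCGs were called between these groups). The rise was 1.75-fold over WG (log2 fold change 0.81, SE 0.14, adjusted p = 2.3e-05) and 1.99-fold over NC (0.99, SE 0.18, adjusted p = 0.0013). In GOM, all 10 WL libraries (7.32 to 20.3 TPM) lay above all 9 NC libraries (4.32 to 7.13 TPM), with a log2 fold change of 0.72 (SE 0.16, adjusted p = 0.00060). Between these groups 36.1% of PCGs were called. The share of all PCGs whose libraries did not overlap between groups was not counted in any comparison. With TPM rescaled over PCGs the groups overlapped, at 8.77 to 22.5 in WL GOM and 4.93 to 8.92 in NC GOM. In WG against NC, DGAT1 was lower in MAD (-0.52, adjusted p = 0.022) and RAD (-0.39, adjusted p = 0.038) by less than 1.5-fold and so was not called. Both were called without the libraries under 90% of TPM on PCGs (-0.66 and -0.64).

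**Figure D2:**
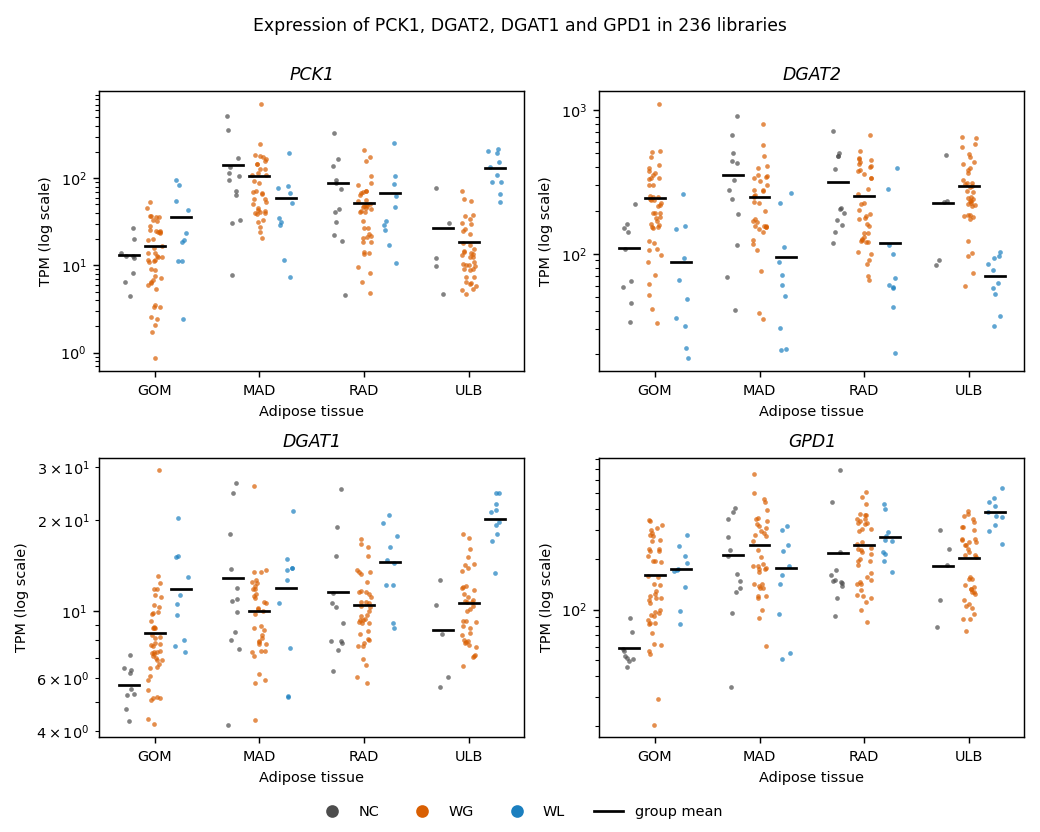
TPM (log axis) of PCK1, DGAT2, DGAT1 and GPD1 in each of 236 libraries by adipose tissue, coloured by nutritional group, with the group mean as a bar. In ULB the 10 WL libraries of PCK1 (53.7 to 216 TPM) sit above nearly all WG libraries, and those of DGAT2 (31.3 to 102.3 TPM) below nearly all.

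PCK1, which makes phosphoenolpyruvate for glyceroneogenesis, rose most of the 9 genes. In ULB its level was 4.75, 12.9 and 70.6 TPM in WG (n = 38) and 53.7, 120 and 216 TPM in WL (n = 10). In WL, 8 of 10 libraries lay above the highest WG library, and 3 of 38 WG libraries lay above the lowest WL library. The 5 NC ULB libraries held 4.71, 30.4, 12.2, 9.84 and 77.0 TPM. The rise was 6.68-fold over WG (log2 fold change 2.74, SE 0.29, adjusted p = 1.7e-09), which ranked 9 of 13633 PCGs by p, and 4.36-fold over NC (2.12, SE 0.50, adjusted p = 0.0082). The rise over WG was called under each alternative fit, at 1.92 to 2.77. The rise over NC was not called without the libraries under 90% of TPM on PCGs (1.84, adjusted p = 0.086, NC n = 3), where DGAT1 and DGAT2 were (0.86 and -2.33, adjusted p = 0.028 and 0.0025). Of 5 adipocyte markers, 2 rose in the same comparison, ADIPOQ by 0.66 and PLIN1 by 0.69, and the fibroblast collagens COL1A1 and COL3A1 fell by 2.39 and 1.12 (log2 fold changes, edgeR, adjusted p = 0.0021, 7.1e-06, 0.00071 and 9.3e-06). The summed adipocyte markers were 7958, 14068 and 30738 TPM in WG ULB and 15208, 21170 and 30312 TPM in WL ULB, and their part in the changes of PCK1 and the other genes was not tested.

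In the VATs PCK1 was not called from WG to WL. Between WG and WL its level went from 0.863, 12.6 and 53.9 to 2.40, 21.8 and 96.1 TPM in GOM (log2 fold change 1.03, SE 0.40, adjusted p = 0.099), from 20.5, 68.6 and 712 to 7.41, 43.3 and 194 TPM in MAD (-0.86, SE 0.43, adjusted p = 0.12), and from 4.79, 43.9 and 213 to 10.6, 39.7 and 256 TPM in RAD (0.50, SE 0.42, adjusted p = 0.44). The change in MAD lay 3.59 below that in ULB (SE 0.57, interaction adjusted p = 1.4e-05, called in 5.66% of PCGs). The difference was 3.30 (adjusted p = 0.0020) without the MAD libraries with T cell or smooth muscle markers. In GOM the change lay 1.68 below that in ULB (SE 0.57, adjusted p = 0.16, where 0 of 9 genes and 1.07% of PCGs were called), and in RAD 2.22 below it (SE 0.57, adjusted p = 0.057, 0 of 9 genes and 0.202% of PCGs). Against NC, PCK1 was lower in WL in MAD (-1.42, SE 0.56, adjusted p = 0.040), a call lost in 6 of 8 alternative fits, and in WG in RAD (-1.08, SE 0.38, adjusted p = 0.024), lost in 3 of 7.

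PCK1 was also the gene with the clearest order of ATs. In WG, mean TPM was 106 ± 118 in MAD (SD, n = 36), 51.6 ± 45.6 in RAD (n = 39), 18.5 ± 15.6 in ULB (n = 38) and 16.7 ± 13.04 in GOM (n = 45). All 36 MAD libraries lay above the GOM median, and 37 of 38 ULB libraries lay below the MAD median. The log2 fold change was 2.68 for MAD over GOM (SE 0.27, adjusted p = 1.8e-13), 1.67 for RAD over GOM (SE 0.27, adjusted p = 2.1e-07), -1.01 for RAD over MAD (SE 0.27, adjusted p = 0.0039), -2.48 for ULB over MAD (SE 0.26, adjusted p = 5.4e-13) and -1.46 for ULB over RAD (SE 0.25, adjusted p = 2.5e-06). ULB and GOM were not shown to differ (0.20, SE 0.25, adjusted p = 0.56). In WL the order of the means was another, with ULB at 131 ± 59.2 TPM, RAD at 67.2 ± 73.0, MAD at 58.6 ± 54.0 and GOM at 36.4 ± 32.1 (n = 10 each, order not tested).

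Between ATs of WG, 9 tests were called in all. Of the 9 genes, 3 were called in MAD over GOM (6.27% of PCGs), 3 in RAD over GOM (11.2%), 0 in ULB over GOM (17.9%), and 1 each in RAD over MAD (5.40%), ULB over MAD (14.4%) and ULB over RAD (9.27%). In ULB over GOM, 4 of the 9 genes (GPAM, LPIN1, DGAT1 and GPD1) had an adjusted p below 0.05 by edgeR but changed by less than 1.5-fold. Beside PCK1, LPIN1 was higher in MAD and RAD than in GOM (0.99 and 0.65, adjusted p = 7.4e-08 and 0.00031), as was GPD1 (0.63 and 0.67, adjusted p = 0.013 and 0.0021). Each of these calls held in all alternative fits.

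GPD1, which reduces dihydroxyacetone phosphate to glycerol 3-phosphate, was higher in WL ULB too. Its level there was 248, 374 and 538 TPM (n = 10), all above the WG median of 209 TPM (range 74.6 to 389, n = 38), and the 5 NC libraries held 230, 115, 299, 78.5 and 185 TPM. The rise was 1.70-fold over WG (log2 fold change 0.77, SE 0.23, adjusted p = 0.016) and 1.80-fold over NC (0.85, SE 0.25, adjusted p = 0.025). The former was lost with a term for libraries under 90% of TPM on PCGs (0.60, adjusted p = 0.082) or without those libraries (0.71, adjusted p = 0.062), and the latter without NC ULB replicate 5, 9 or 12 (0.73, 0.68 and 0.81, adjusted p = 0.072, 0.074 and 0.059). The rise over NC was also not called without the libraries under 90%. In GOM, GPD1 was low in NC, with 45.5, 52.6 and 88.6 TPM (n = 9), and rose 2.33-fold in WG (1.22, SE 0.34, adjusted p = 0.0045; 34 of 45 WG libraries above the highest NC library) and 2.42-fold in WL (1.27, SE 0.20, adjusted p = 1.7e-05; 9 of 10 above it). The summed adipocyte markers were 4774, 7213 and 8427 TPM in NC GOM, 4150, 13394 and 23803 TPM in WG GOM and 6311, 12311 and 15457 TPM in WL GOM, and their part in the rises of GPD1, AGPAT2, DGAT1 and DGAT2 over NC GOM was not tested. The GOM rise in WG was not called with the term for libraries under 90% (1.00, adjusted p = 0.070), and 7 of the 9 NC GOM libraries were such libraries. The change from WG to WL in MAD lay 1.27 below that in ULB (SE 0.38, adjusted p = 0.024), or 1.00 below it without the 5 MAD libraries with other markers (adjusted p = 0.37).

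The annotated starts of PCK1 and GPD1, which rose together in WL ULB, are shown with the 250 bases before each (Sscrofa11.1, RefSeq). They lie at chr17:57930257-57930506 (plus strand) for PCK1 and chr5:16007929-16008178 (plus strand) for GPD1, 5' to 3', with matches to searched motifs in capitals.
PCK1: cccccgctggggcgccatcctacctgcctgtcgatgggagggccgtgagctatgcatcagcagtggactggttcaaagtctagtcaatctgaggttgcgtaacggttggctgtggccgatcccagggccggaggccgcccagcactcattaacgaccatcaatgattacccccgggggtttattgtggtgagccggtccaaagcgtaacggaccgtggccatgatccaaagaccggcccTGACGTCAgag
GPD1: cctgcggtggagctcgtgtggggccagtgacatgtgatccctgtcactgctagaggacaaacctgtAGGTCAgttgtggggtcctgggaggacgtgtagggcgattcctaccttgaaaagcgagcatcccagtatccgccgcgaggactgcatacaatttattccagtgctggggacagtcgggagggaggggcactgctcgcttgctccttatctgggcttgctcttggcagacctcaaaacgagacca
The capitals mark the cAMP response element (CRE) TGACGTCA in PCK1, 11 to 4 bases before the start, and AGGTCA, part of a nuclear receptor element, in GPD1, 184 to 179 bases before it. The CRE is palindromic and so reads the same on both strands. Of 20612 promoter windows of the same length, 1.63% held the CRE letters and 12.3% held AGGTCA on either strand. The other letters searched were CACGTG (E-box, 6.17% of windows), TTGCGCAA (C/EBP palindrome, 0.160%), GTAAACA (forkhead, 2.31%) and TGTTCT (part of a glucocorticoid receptor element, 10.6%). The windows of GPAM, GPAT3, AGPAT2, DGAT1 and DGAT2 held none of the 6. The GK window held CACGTG 105 to 100 bases and AGGTCA 101 to 96 bases before the start, which share 2 bases. A match describes letters, not binding.

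LPIN1, the main phosphatidate phosphatase of fat tissue, was lower in WL than in NC in each AT and lower in WG than in NC in the VATs. In MAD its level was 91.0, 129 and 372 TPM in NC (n = 12), 26.99, 109 and 199 TPM in WG (n = 36) and 20.8, 53.3 and 83.3 TPM in WL (n = 10). All 10 WL libraries lay below all 12 NC libraries (33.1% of PCGs were called between these groups), a 3.78-fold fall (log2 fold change -1.92, SE 0.26, adjusted p = 1.7e-05). How many PCGs separated in this way was not counted. With TPM rescaled over PCGs the groups overlapped, at 99.1 to 386 in NC MAD and 25.6 to 101 in WL MAD. From NC to WG the fall was 1.78-fold in MAD (-0.84, SE 0.20, adjusted p = 0.0027), 1.87-fold in GOM (-0.90, SE 0.22, adjusted p = 0.0012) and 2.19-fold in RAD (-1.13, SE 0.21, adjusted p = 4.8e-05). In ULB it was -0.93 (SE 0.33, adjusted p = 0.12, n = 5 in NC). From WG to WL it fell further in MAD (-1.10, SE 0.23, adjusted p = 0.00046) but was not called in GOM (-0.51), RAD (-0.48) or ULB (-0.08). Against NC, WL was lower in each AT, by 2.61-fold in GOM, 3.04-fold in RAD and 2.01-fold in ULB (adjusted p = 0.00024, 2.3e-05 and 0.012). Without NC ULB replicate 5, which had the highest NC ULB level of 206 TPM, the last value was -0.76 (adjusted p = 0.058). Without the 5 MAD libraries with other markers, LPIN1 was still called in MAD from NC to WG (-0.83, adjusted p = 0.0034), from WG to WL (-0.89, adjusted p = 0.018) and from NC to WL (-1.72, adjusted p = 0.00033). Libraries under 90% of TPM on PCGs were frequent in NC and WL. Without them, LPIN1 was not called in GOM from NC to WG (-0.78, adjusted p = 0.25) or to WL (-1.24, adjusted p = 0.19), in MAD from WG to WL (-0.91, adjusted p = 0.44) or in ULB from NC to WL (-0.58, adjusted p = 0.26).

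LPIN2, its paralog with the same enzyme activity, was higher in WG by small amounts. The macrophage markers CD68, CD163, CSF1R, MRC1 and C1QA rose in 7 of 20 tests of the same contrast and fell in 0, with 5 of 5 called in MAD, 2 in RAD and 0 in both GOM and ULB. Their summed level had medians of 458, 234, 293 and 357 TPM in NC (GOM, MAD, RAD, ULB) and 680, 520.1, 460.1 and 427 TPM in WG, and its part in the LPIN2 values was not tested. For WG over NC, GOM, MAD, RAD and ULB gave log2 fold changes of 0.35, 0.53, 0.38 and 0.52, with SEs of 0.10 to 0.14 and adjusted p values of 0.011, 0.00048, 0.0028 and 0.033, all under 1.5-fold and therefore not called. In RAD, 38 of 39 WG libraries lay above the NC median of 11.3 TPM, in MAD 35 of 36 lay above 10.7 TPM, and in ULB 38 of 38 lay above 10.6 TPM. Without NC ULB replicate 7 the value in ULB passed the fold limit (0.72, adjusted p = 0.0024). Between NC and WL it was called in MAD (0.65, SE 0.15, adjusted p = 0.0013), but not without the 5 MAD libraries with other markers (0.45, adjusted p = 0.024, under the fold limit).

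**Figure D3:**
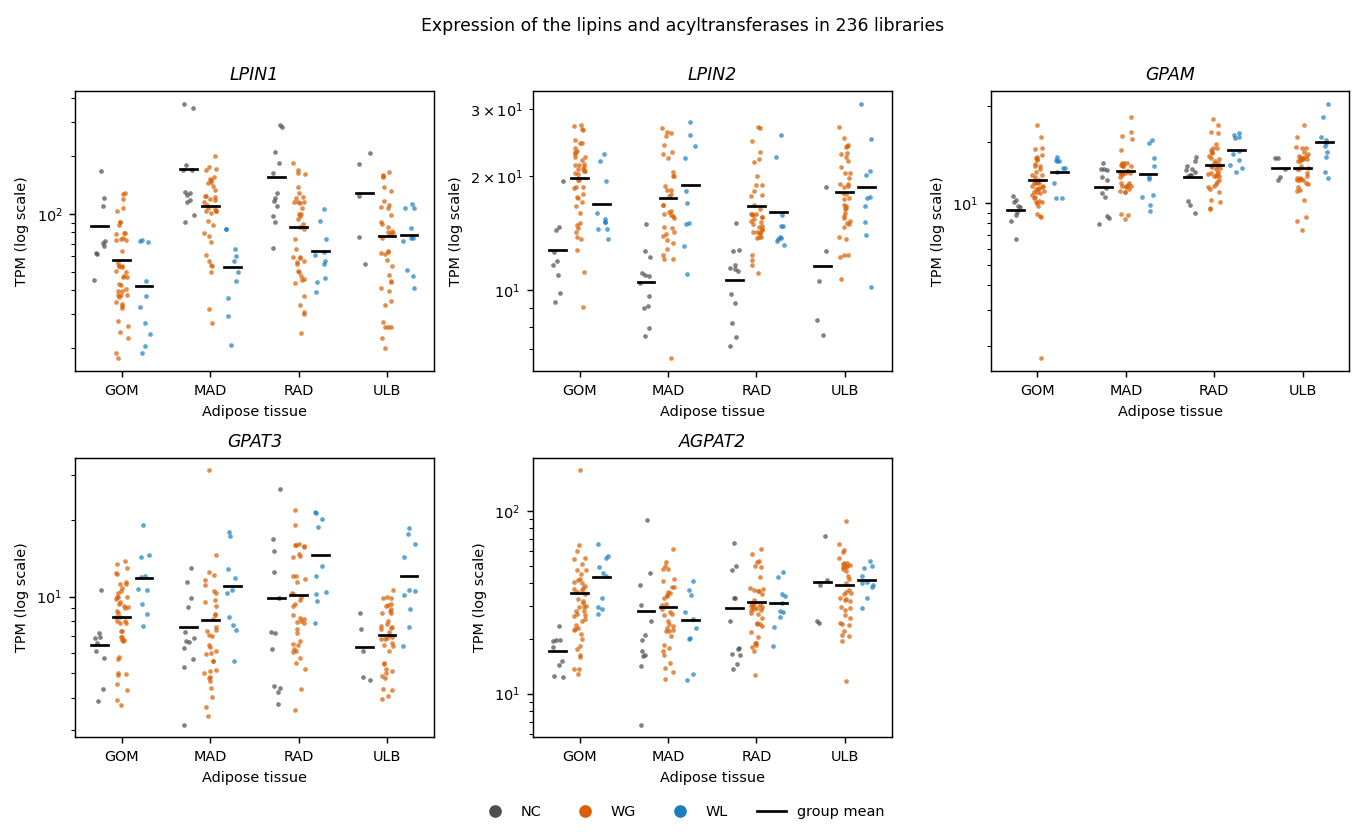
TPM (log axis) of LPIN1, LPIN2, GPAM, GPAT3 and AGPAT2 in each of 236 libraries by adipose tissue, coloured by nutritional group, with the group mean as a bar. LPIN1 is highest in NC in each tissue and LPIN2 lowest in NC. WG GOM replicate 35, at 0 TPM for GPAT3, cannot be drawn on the log axis.

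The 250 bases before the starts of both lipins show no shared match. They lie at chr3:125074138-125074387 (minus strand) for LPIN1 and chr6:103625475-103625724 (plus strand) for LPIN2, 5' to 3' on the gene's strand.
LPIN1: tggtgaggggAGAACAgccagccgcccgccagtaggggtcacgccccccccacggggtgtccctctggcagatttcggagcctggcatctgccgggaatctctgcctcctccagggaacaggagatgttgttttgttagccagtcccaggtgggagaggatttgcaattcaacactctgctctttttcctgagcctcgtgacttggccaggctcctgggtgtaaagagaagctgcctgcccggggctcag
LPIN2: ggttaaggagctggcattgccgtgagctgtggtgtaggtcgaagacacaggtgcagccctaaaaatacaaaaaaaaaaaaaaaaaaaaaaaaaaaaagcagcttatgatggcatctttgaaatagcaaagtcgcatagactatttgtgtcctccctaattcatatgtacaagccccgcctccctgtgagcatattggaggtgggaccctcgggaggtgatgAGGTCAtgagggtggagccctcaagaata
The capitals in LPIN1 are the letters TGTTCT as read on the opposite strand, 240 to 235 bases before the start. Those in LPIN2 are AGGTCA, 29 to 24 bases before the start.

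Among the acyltransferases of the early steps, GPAM was not called in any comparison, and its group means ran from 9.25 ± 1.28 TPM in NC GOM (SD, n = 9) to 19.9 ± 5.24 TPM in WL ULB (n = 10). Between WG and WL its log2 fold change was -0.10 to 0.29 over the ATs. In GOM, GPAM was higher in WL than in NC by 0.31 (adjusted p = 0.0098, edgeR), and GPAT3 by 0.57 (adjusted p = 0.011), both under 1.5-fold. Within WG, GPAM was higher in RAD and ULB than in GOM by 0.32 and 0.30 (adjusted p = 0.00090 and 0.0024), also under 1.5-fold. GPAT3 was called once, in ULB from WG to WL, from 3.98, 6.9996 and 10.6 TPM to 6.42, 10.6 and 18.5 TPM (1.56-fold, log2 fold change 0.64, SE 0.15, adjusted p = 0.0020). In the VATs the same change was 0.41 to 0.47, with adjusted p values of 0.13 to 0.14. AGPAT2, whose loss causes congenital lipodystrophy, was called only in GOM. NC GOM held 12.4, 17.98 and 23.4 TPM (n = 9), WG GOM 12.8, 30.2 and 166 TPM (n = 45) and WL GOM 27.1, 44.9 and 66.1 TPM (n = 10). The rise over NC was 1.75-fold in WG (0.81, SE 0.30, adjusted p = 0.028) and 2.06-fold in WL (1.04, SE 0.18, adjusted p = 4.2e-05). Without WG GOM replicate 35, which held the highest AGPAT2 and DGAT2 levels of its group, the former was 0.66 (adjusted p = 0.014), and without the libraries under 90% of TPM on PCGs it was not called (1.03, adjusted p = 0.17, NC n = 2). In TPM all 10 WL libraries lay above the highest NC library (36.1% of PCGs were called between these groups). The share of PCGs that separated in this way was not counted. With TPM rescaled over PCGs the groups overlapped, at 12.99 to 31.2 in NC GOM and 29.96 to 79.2 in WL GOM.

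Whether a change differed between VATs and ULB was tested by interaction fits. All interaction values given here took samples of different ATs as independent, although same-numbered WG samples deviated together. No interaction was fitted with the replicate number as a block. From WG to WL, MAD against ULB gave 3 calls of 9, PCK1, GPD1 and LPIN1 (-1.004, SE 0.33, adjusted p = 0.048), each lower in MAD. Without the 5 MAD libraries with other markers, only PCK1 of these was called. From NC to WG, none of the 9 genes was called against ULB in GOM (1.22% of PCGs), MAD (0.401%) or RAD (0.236%). At an unadjusted p under 0.05 there were 2, 1 and 1 genes.

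Other genes of the pathway were counted by list. Over the 12 comparisons, 0.507 to 15.4% of all PCGs tested were called upwards and 1.87 to 20.7% downwards. Of 8 matched genes for other acyl chain and phosphatase steps (96 tests over 12 comparisons), 2 tests rose and 9 fell, and all 9 falls were of AGPAT1, a paralog of AGPAT2. After weight loss AGPAT1 fell in each AT, with values of 1.39, 1.80, 1.51 and 1.35 for GOM, MAD, RAD and ULB (falls as log2 fold changes, adjusted p = 0.040, 0.00030, 0.0075 and 0.015). Of 9 matched genes for the supply of glycerol 3-phosphate (108 tests), 13 tests rose and 11 fell. AQP3, an aquaglyceroporin, rose in 9 of 12 comparisons, by 1.62 in ULB from WG to WL (SE 0.17, adjusted p = 1.3e-09), and pyruvate carboxylase, PC, fell in 6. MDH1, the cytosolic malate dehydrogenase, fell in 4, by 1.18 in ULB from WG to WL (SE 0.17, adjusted p = 1.4e-06).

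Of 8 regulators (96 tests), 2 tests rose and 26 fell. MLXIPL, which encodes the carbohydrate-responsive factor ChREBP, fell in 10 of 12 comparisons. Mean TPM of MLXIPL was 28.8, 38.6, 28.2 and 34.6 in WG (GOM, MAD, RAD, ULB) and 6.13, 5.54, 6.69 and 9.40 in WL, with log2 fold changes of -2.29, -2.87, -2.15 and -1.94 (adjusted p = 0.00046, 5.9e-06, 0.00081 and 0.00061). PPARG, the master factor of adipocyte differentiation, fell in 7 and SREBF1, a factor of lipid synthesis, in 5. CEBPA rose in 2, both in GOM against NC.

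Over the 236 libraries, levels of the 9 genes went together only in part. On log2(TPM + 1), the highest correlation between any of them was 0.675 for DGAT1 and GPD1 (0.601 after group means were removed), and that of DGAT1 and DGAT2 was 0.156 (0.404). PCK1 correlated with LPIN1 at 0.415 (0.276) and with DGAT2 at 0.0987 (0.257). These are descriptions, in which ATs of a pig and libraries of low PCG share recur as points. The gene outside the set most like PCK1 was LIPE, the hormone-sensitive lipase, with r = 0.616. For DGAT2 the nearest with a symbol was ACSS2 (0.840), for LPIN1 SIK2 (0.878), for GPD1 ACAA1 (0.860), for DGAT1 NR2F6 (0.769), for AGPAT2 D2HGDH (0.801), for LPIN2 IKBKB (0.742), for GPAT3 DPYD (0.7097) and for GPAM HIF1AN (0.692).

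Chromatin state at the gene starts was read from the A-B index, a Hi-C score for bins of 20 kb that is positive in the open compartment A and negative in the closed compartment B. It was measured in 240 samples (9, 46 and 10 in NC, WG and WL GOM, 12, 37 and 10 in MAD, 12, 40 and 10 in RAD, 5, 39 and 10 in ULB) and covers 18 autosomes. AGPAT2, on a scaffold without a chromosome, and GK, on X, have no value. The start bins of GPAT3, DGAT1, PCK1 and GPD1 were positive in all 240 samples. Their mean index over the 12 groups was 5.17, 5.73, 2.30 and 3.69, and those of GPAT3 and DGAT1 lay at percentiles 97.6 and 99.0 of 113298 bins. The other 4 lay near 0, LPIN1 at 0.67, LPIN2 at 0.61, DGAT2 at 0.36 and GPAM at 0.17. For DGAT2 and GPAM the index was exactly 0 in 35 and 10 samples. Whether such zeros are measured or missing values is not given in the sources used here. Over the gene body the group means of DGAT2 were 1.71 to 2.19.

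A bin was called at an adjusted p below 0.05 by limma over all bins and a difference above 0.75. From NC to WG, 0 of 8 genes were called in GOM (2.79% of bins, with 2 genes at an adjusted p below 0.05 but under the limit of size), 1 in MAD (4.47%), 1 in RAD (4.32%) and 2 in ULB (6.15%). From WG to WL, 0 of 8 were called in GOM (2.53%), MAD (1.01%), RAD (3.83%) and ULB (9.96%), with 1, 1, 0 and 2 genes at an unadjusted p under 0.05 by limma. At an adjusted p below 0.05 there were 1, 0, 0 and 1 genes. Between ATs of WG, 1 was called in RAD over GOM (12.0%) and 1 in ULB over GOM (18.8%), and 0 in MAD over GOM (6.27%), RAD over MAD (1.24%), ULB over MAD (12.1%) and ULB over RAD (11.3%), where 2, 1, 2 and 4 genes had an adjusted p below 0.05.

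The start bin of LPIN2 moved from around 0 to positive values with weight gain. Over the gene body LPIN2 was already positive in NC, with means of 0.56 to 0.90 against 0.93 to 1.41 in WG. Its index was -0.87, -0.12 and 0.59 in NC MAD (lowest, median and highest, n = 12) and -0.21, 0.82 and 1.89 in WG MAD (n = 37), a difference of 0.84 (SE 0.16, adjusted p = 0.00015). In RAD it was -0.60, 0.05 and 0.61 in NC (n = 12) and -0.09, 0.94 and 1.70 in WG (n = 40), a difference of 0.81 (SE 0.14, adjusted p = 4.1e-05). In GOM the difference of 0.72 (adjusted p = 0.0022) was under the limit of size. The number of positive samples was 5 of 12 and 35 of 37 in MAD, 7 of 12 and 38 of 40 in RAD, and 6 of 9 and 44 of 46 in GOM. All 40 WL samples were positive. With the index quantile normalized, the differences were 0.748 in MAD and 0.67 in RAD (adjusted p = 0.00032 and 0.00013), under the limit of size, so neither was called.

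**Figure D4:**
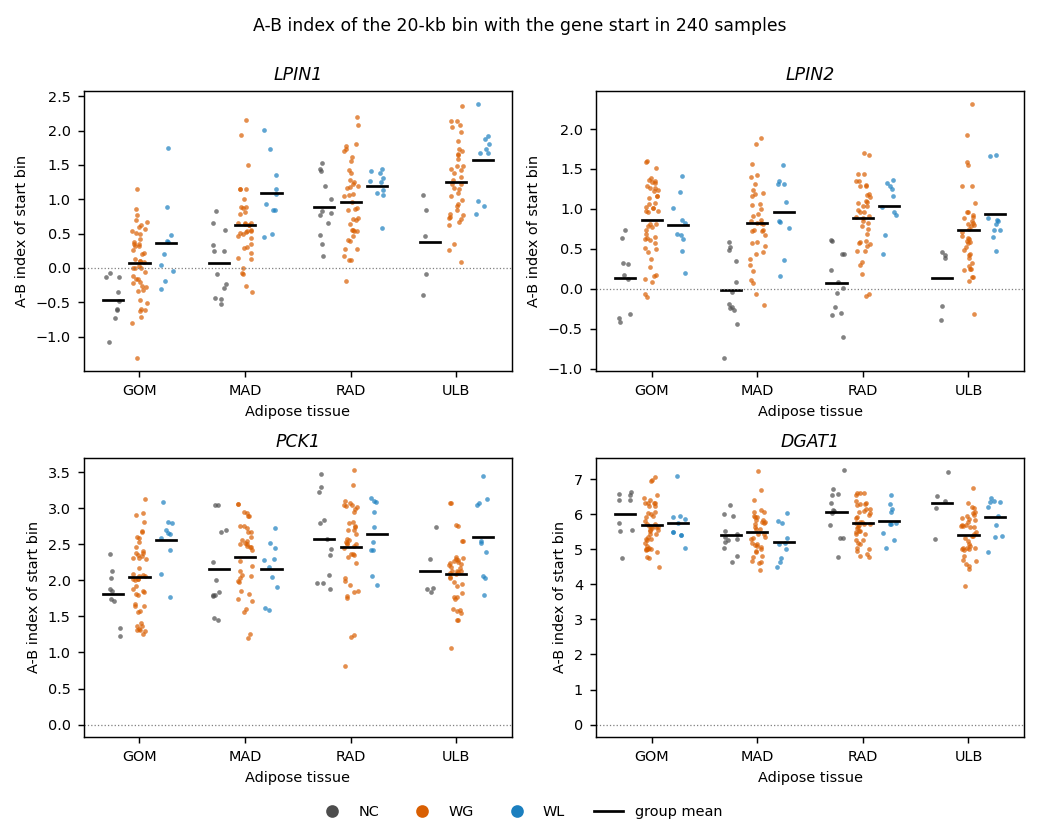
A-B index of the 20-kb bin with the start of LPIN1, LPIN2, PCK1 and DGAT1 in each of 240 samples by adipose tissue, coloured by nutritional group, with the group mean as a bar and a dotted line at 0. NC samples of LPIN2 scatter around 0 while WG and WL samples are mostly positive. The LPIN1 start-bin index is lowest in NC GOM, where 0 of 9 samples are positive (9 of 9 over the gene body).

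LPIN1 had the index that differed most between ATs. In WG its mean was 0.07 ± 0.50 in GOM (SD, n = 46), 0.62 ± 0.53 in MAD (n = 37), 0.96 ± 0.58 in RAD (n = 40) and 1.26 ± 0.56 in ULB (n = 39). RAD lay 0.89 above GOM (SE 0.12, adjusted p = 2.1e-10) and ULB 1.19 above it (SE 0.11, adjusted p = 7.4e-16), and both calls were kept after quantile normalization. For WG over NC the difference was 0.53 in GOM, 0.55 in MAD and 0.88 in ULB (adjusted p = 0.035, 0.017 and 0.027), and only the last passed the limit of size. In RAD it was 0.071 (adjusted p = 0.82). Over the same comparison LPIN1 RNA was lower in GOM, MAD and RAD, as given above. In ULB, DGAT1 differed by -0.90 (SE 0.28, adjusted p = 0.033). Both ULB calls rested on 5 NC samples, whose LPIN1 index was 1.06, -0.39, -0.08, 0.85 and 0.46. LPIN1 was not called without NC replicate 5, 7 or 12, and DGAT1 not without 5, 9 or 12. For PCK1, the index in WL lay above WG by 0.51 in ULB (SE 0.16, adjusted p = 0.011) and 0.50 in GOM (SE 0.17, adjusted p = 0.029), both under the limit of size. With the index quantile normalized, PCK1 had means of 2.14 in WG and 2.43 in WL in ULB, and 2.09 and 2.39 in GOM. Neither difference then had an adjusted p below 0.05 by limma. The median difference of the 8 genes from WG to WL in ULB was 0.26, and that of all bins -0.019. After quantile normalization these were 0.078 and -0.019.

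H3K27ac, a histone mark of active enhancers and promoters, was given as enhancer regions in 18 tables, 4 of NC, 10 of WG subgroups and 4 of WL. By the labels NC MAD and 1 WG subgroup of RAD had 1 library each, and the other tables pool 2 to 11. They give values with no replicates, and the peaks within 2 kb of a start site were left out by the authors. The tables held 18143 to 25819 regions, of which 1.98 to 6.79% were marked as super-enhancers. A region within 10 kb was present in 135 of 144 pairs of a gene and a table, in 12 tables for GPAM, 17 each for GPAT3, PCK1 and GPD1, and 18 each for the other 4. LPIN2 and DGAT2 each had a super-enhancer in 13 of 18 tables, PCK1 in 3, LPIN1 and DGAT1 in 1 each, and GPAM, GPAT3 and GPD1 in 0. The regions of a table spanned 283.2 to 539.1 Mb in total, so a region near a gene may be common. The share of all genes with a region or super-enhancer nearby was not counted at any distance used here. Whether the genes named here differ from other genes in this was therefore not tested. The 3 tables for PCK1 were NC RAD and both WG subgroups of RAD, with ranks of 516, 153 and 60, the last in the table of 1 library. In WL RAD its top region was at 6.50% of all regions and not marked.

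The DGAT2 super-enhancer was marked in all 4 WL tables, at 3.20 to 4.15% of all regions, while DGAT2 RNA was lower in WL. In ULB, the top PCK1 region lay at 12.6% of regions in NC, 56.3 and 27.6% in both WG subgroups and 9.47% in WL. Within 50 kb the WG values were 20.1 and 1.31%, the latter a super-enhancer at rank 255, and those of NC and WL were as before, so the order turned. With regions required to overlap the gene, DGAT2 had a super-enhancer in 11 tables and PCK1 in 1, and with 50 kb, in 13 and 7. Of the 7, 3 were in GOM (WL, rank 46, and 2 WG subgroups, ranks 56 and 512), 1 in ULB and 3 in RAD. The depth of the libraries is not in the tables, so counting error is unknown.

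**Figure D5:**
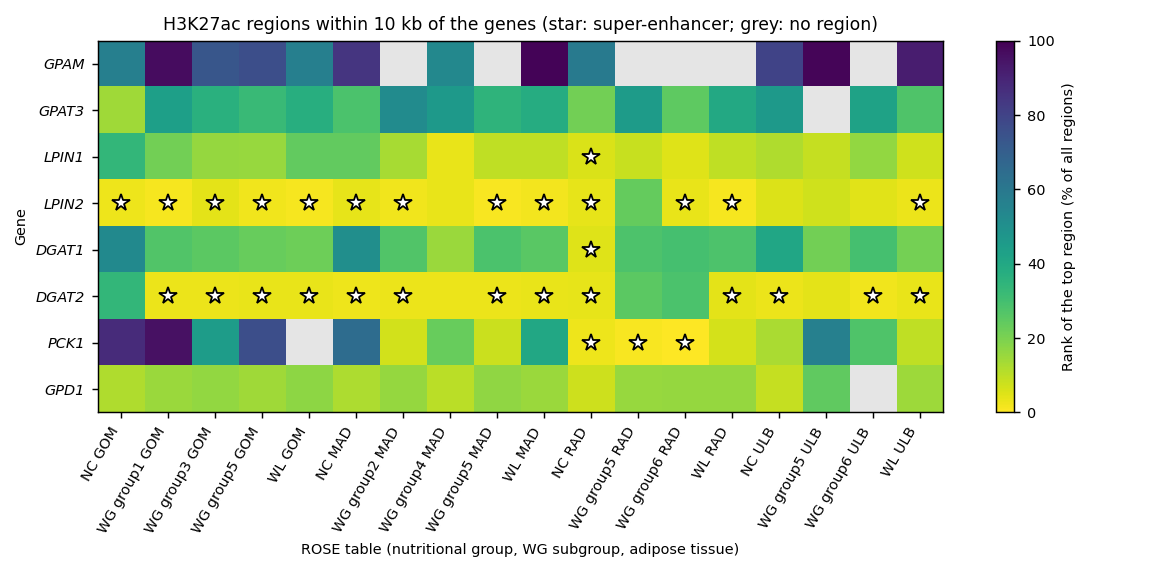
Rank of the top H3K27ac region within 10 kb of 8 genes, as a percent of all regions of a table (0 is the strongest), in 18 tables ordered by adipose tissue. Stars mark super-enhancers and grey cells have no region. LPIN2 and DGAT2 carry stars in 13 tables each. At this distance PCK1 carries stars in RAD only, whereas within 50 kb it has them in GOM and ULB too.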

How the data were processed

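RNA-seq, Hi-C and H3K27ac ChIP-seq tables were used. The authors deposited estimated counts and TPM of PCGs, made with kallisto 0.43.0. The expected counts are not whole and were rounded for testing. The deposited A-B index is a score for 20-kb bins on Sscrofa11.1. The deposited H3K27ac tables give signal and rank of stitched enhancer regions from 1 to 11 libraries a table, so they hold no replicates. Lists of TADs and tables of long noncoding RNAs were not used, nor were 9 further columns of each of the expression and A-B tables that matched no label.

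Per pair of groups, PCGs were kept if 80% or more of either group exceeded 0.5 TPM, and were tested with edgeR 4.0.16 (TMM, quasi-likelihood, two-sided, R 4.3.3). The test gives no SE, so the SEs of RNA values were derived as the absolute log2 fold change over the square root of F. The A-B index was tested with limma 3.58.1 over 113298 bins. Alternatives were DESeq2 1.42.0, RLE factors, no filter, the replicate number as a block, left-out libraries and a term for libraries under 90% of TPM on PCGs. Within WG, same-numbered samples of different ATs deviated together (median correlations 0.556 to 0.637 over the 6 pairs of ATs). Every pair was over 0.1 for MAD with ULB (30 pairs) and RAD with ULB (33 pairs), and all but 1 or 2 for the others. Numbers did not pair the samples between diets. Both tests were checked on simulated data. For NC to WG in ULB, edgeR recovered 64 of 100 genes with a log2 fold change of 1 and 92 of 100 with 2. For WG to WL in GOM it recovered 82 and 100 of 100. Named genes were the 9 matched genes, up to 4 genes of each further pathway list that were called most often, and the most alike gene with a symbol for each. Markers of cell types are named beside the results they moved with. Members and lists were chosen with earlier results of these data known. Libraries of a group came from different pigs as far as the replicate numbers show.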

Additional observations from a re-analysis of the deposited data

Results flagged for a closer look

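In each group of 4 to 10 samples, the highest or lowest sample was set against the rest by Dixon's criterion, which chance alone passes in about 1 of 20 groups, and 6 groups passed, a share near that of chance. GPAT3 was 10.634 TPM in NC GOM replicate 2, where the next highest library had 7.19 TPM. PCK1 was 194 TPM in WL MAD replicate 4, against 80.7 TPM in the next, and 255.6 TPM in WL RAD replicate 4, against 106.8 TPM in the next. The A-B index of LPIN1 was 0.58616 in WL RAD replicate 6, below the next lowest of 1.06. That of DGAT1 was 7.0958 in WL GOM replicate 2, above the next of 5.95. That of DGAT2 was 1.07 in NC ULB replicate 5, where the next was 0.29 and 3 of 5 samples were at exactly 0.

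The change from WG to WL differed between MAD and ULB for 3 genes by edgeR's interaction test, which called 5.66% of PCGs. The log2 difference was -3.587 for PCK1, -1.2732 for GPD1 and -1.004 for LPIN1, each lower in MAD. Without the MAD libraries with T cell or smooth muscle markers, only PCK1 of these was called.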

How the results depend on the processing

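Over the 12 diet comparisons 30 tests of the 9 genes were called, and 19 without the libraries under 90% of TPM on PCGs. Without those libraries the calls were 0 in GOM and 2 in MAD from NC to WG, 0 in GOM, 0 in MAD and 1 in RAD from WG to WL, and 2 in MAD and 2 in ULB from NC to WL. This setting left 2 libraries in each of NC GOM and WL GOM. With a term for these libraries, 1 gene was called in RAD from WG to WL, and 1 each in the interactions of GOM with ULB from NC to WG (AGPAT2) and of RAD with ULB from WG to WL (PCK1). Without the 5 MAD libraries with other markers, the calls in MAD were 2 from NC to WG, 1 from WG to WL and 2 from NC to WL, and 1 of 3 interaction calls remained in total and for MAD with ULB. With DESeq2, 1 gene was called in RAD from WG to WL.

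With the replicate number as a block, which the diet groups share by number only, calls from NC to WG were 0 in GOM, 0 in MAD and 0 in RAD, those from WG to WL were 0 in GOM and 2 in RAD, and those from NC to WL in ULB were 2. With the same libraries unblocked they were 0 in GOM, 0 in MAD, 1 in RAD, 3 in RAD from WG to WL and 2 in ULB from NC to WL. The block changed no call between ATs of WG. Leaving out each NC ULB replicate gave 0 to 1 calls from NC to WG and 3 to 6 from NC to WL in ULB. Of 6 A-B calls, 2 remained after quantile normalization and 26 were made with no minimum difference, and leaving out each NC ULB sample gave 0 to 2 of the 2 calls there. The mean over the gene body lay within 1 SD of the start bin in 52 of 96 group means.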
